A study of Mus musculus with 6 samples.

Results

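The hepatobiliary transporters analysed here are 10 genes whose proteins carry bile acids, phospholipid, sterols and organic anions across the hepatocyte membrane, and they were taken by symbol from a table of 24346 gene symbols. The members were Slc10a1, Slco1a1 and Slco1b2 for uptake from sinusoidal blood, Abcb11, Abcb4, Abcc2, Abcg5 and Abcg8 for export into the bile canaliculus, and Abcc3 and Abcc4 for efflux back to blood. All 10 had a row in the table and all 10 passed the filter on low values, a mean of at least 0.5 FPKM (fragments mapped to a transcript, scaled to its length and to the mapped total of the library) over the 6 livers.

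RNA was sequenced from 3 control and 3 lipophagy-induced liver samples of C57BL/6 mice. By the study's methods the mice were C57BL/6J males that ate CDAHFD, a high-fat diet with defined amino acids and no choline that gives steatohepatitis, for 6 weeks from 8 weeks of age, received a single intravenous dose of adeno-associated virus serotype 8, and were analysed 2 weeks after a return to normal chow. Lipophagy livers carried LDTS-eLIR, in which a lipid droplet-targeting sequence from perilipin 1 is joined to an engineered LC3-interacting region that recruits autophagosomes, and control livers carried LDTS-LIR mut, with the same targeting sequence and a mutated region. The thyroxine-binding globulin promoter drives both constructs in hepatocytes, and the targeting sequence that both groups share is described by the study as partly lipogenic, so the controls are not uninjected livers. The comparison asks whether the transcripts of bile-forming transporters differ between steatohepatitis livers with and without induced lipophagy.

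Hepatocytes are polarised. Their sinusoidal membrane takes up bile acids and anions from portal blood, and their canalicular membrane pumps bile salts, phosphatidylcholine and sterols into bile, where the lipids form mixed micelles with the salts. When canalicular export is impaired, hepatocytes are known to lower uptake and to use basolateral efflux pumps of the ABCC family as an overflow route. Many of these genes are controlled by nuclear receptors, among them the bile acid receptor FXR, the sterol receptor LXR and the xenobiotic receptors PXR and CAR.

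Sequence before the start site is shown for the uptake carriers and for the sterol exporters, since the uptake carriers were the members whose groups were separated upward and the sterol exporters lie head to head. RefSeq windows from 250 bases before to 50 bases after a start (GRCm38.p6, the same assembly as mm10) matched 9 of the 10 members. The stretches, printed 5′ to 3′ on the strand given, lie at chr12:80968706-80968955 (minus strand) for Slc10a1, chr6:141946963-141947212 (minus strand) for Slco1a1, chr6:141629268-141629451 (plus strand) for Slco1b2 and chr17:84683012-84683120 (plus strand) for the interval between the starts of Abcg5 and Abcg8. Those of the uptake carriers end before the outermost RefSeq or GENCODE start of the gene. The interval between Abcg5 and Abcg8 was not checked for exons of other transcripts. Capitals mark matches on either strand. The motifs searched were the nuclear receptor hexamer AGGTCA, held by 16.3% of all 32851 RefSeq windows of 300 bases, and the STAT motif TTCNNNGAA, held by 8.30%. The TATA motif was searched as TATAAA and found in 13.6% of windows. The letters GTTAAT, which are part of the HNF1 site, were in 7.10% of windows. The forkhead motif TGTTTAC was in 3.65%, and the core of the antioxidant response element, TGACNNNGC, in 12.4%. The stretches printed are shorter than these windows (250, 250, 184 and 109 bases), so the shares do not apply to them directly. The last 3 motifs had no match in the stretches printed, and no matches overlapped there. The Slco1b2 stretch ends before the outermost RefSeq start of the gene, upstream of the GENCODE start, and a GTTAAT match at -66 from the GENCODE start begins just past its end.
Slc10a1: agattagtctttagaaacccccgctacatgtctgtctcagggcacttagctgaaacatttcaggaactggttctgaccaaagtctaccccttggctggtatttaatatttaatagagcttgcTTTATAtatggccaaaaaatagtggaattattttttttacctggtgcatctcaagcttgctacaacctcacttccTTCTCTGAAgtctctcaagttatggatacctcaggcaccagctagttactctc
Slco1a1: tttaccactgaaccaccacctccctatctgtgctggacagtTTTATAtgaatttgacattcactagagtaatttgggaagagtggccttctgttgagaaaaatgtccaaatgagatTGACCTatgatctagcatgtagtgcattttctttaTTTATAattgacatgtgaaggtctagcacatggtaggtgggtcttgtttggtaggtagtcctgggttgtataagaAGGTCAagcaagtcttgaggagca
Slco1b2: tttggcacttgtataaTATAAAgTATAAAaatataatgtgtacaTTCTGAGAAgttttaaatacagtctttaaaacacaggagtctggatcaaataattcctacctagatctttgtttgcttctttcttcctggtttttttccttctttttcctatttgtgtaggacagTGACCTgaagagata
Abcg5 and Abcg8: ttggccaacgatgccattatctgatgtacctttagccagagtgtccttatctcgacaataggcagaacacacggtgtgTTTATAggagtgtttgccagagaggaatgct

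The Slc10a1 stretch held a STAT match 53 bases before the start and a TATA match on the opposite strand. Slco1a1 held 2 nuclear receptor hexamers, the nearer of them 24 bases before the start, and Slco1b2 held a hexamer, a STAT match and 2 TATA matches. Slco1a1 also held 2 TATA matches on the opposite strand. The RefSeq starts of Abcg5 (minus strand) and Abcg8 (plus strand) used here are positions 84683011 and 84683121 of chromosome 17, 110 bases apart, whereas the GENCODE span of Abcg8 begins further upstream, within Abcg5. The RefSeq starts share a single TATA match between them. Matches also lay in windows not printed, of members whose groups overlapped. Abcb11 held a hexamer at -56, and Abcc2 a hexamer at -49 and an antioxidant core at -98. Abcc4 held a STAT match at position 3 and antioxidant cores at -25 and, in another window, at -23. A second window of Slc10a1 held a hexamer at -87. These matches describe the letters in the windows and were not tested for binding.

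None of the 10 transporters passed the threshold of an adjusted p below 0.05 over the 11493 genes tested (limma, Benjamini-Hochberg), where 3 genes did, or 0.0261%. At an unadjusted p below 0.05, 3 members were higher in lipophagy livers, against 11.5% of tested genes, and 1 was lower, against 7.97%. The same 4 were the members whose groups did not overlap: Slc10a1, Slco1a1 and Slco1b2 lay higher in every lipophagy liver than in every control liver, as 15.4% of tested genes did, and Abcb4 lay lower in every lipophagy liver, as 10.8% did. The median difference in log2(FPKM + 1) over the 10 members was 0.23, against 0.020 over all tested genes. It was 0.265 over the hepatocyte, 0.356 over the periportal and 0.174 over the pericentral markers described below. A positive median was thus not particular to the transporters. With 3 livers against 3, the two-sided exact permutation test cannot give a p below 0.1.

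Hepatocyte markers differed in the same direction as the uptake carriers. All 16 markers of the hepatocyte list were detected, none was at 0, 13 were higher and 3 lower in lipophagy livers, and 8 had an unadjusted p below 0.05, all higher, as 11.5% of all tested genes were. Their summed level was 65748 to 73740 FPKM in control livers and 78945 to 103271 FPKM in lipophagy livers, with no overlap. That separation rested on Alb, since without it the sums of the other markers overlapped (30278 to 34581 and 33936 to 39182 FPKM), a check chosen after the data were seen. In bulk tissue, fewer cells of a type and less RNA per cell cannot be told apart. When each liver was set relative to the mean log2 level of these 16 markers, a scaling chosen after the data were seen, the median of all tested genes moved to -0.27, as that scaling subtracts the same amount from every gene, so the values on that scale below are to be read against -0.27 and not against 0. On that scale 3745 genes had an adjusted p below 0.05 (limma), Slc10a1, Slco1a1 and Abcb4 among them.

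**Figure D1:**
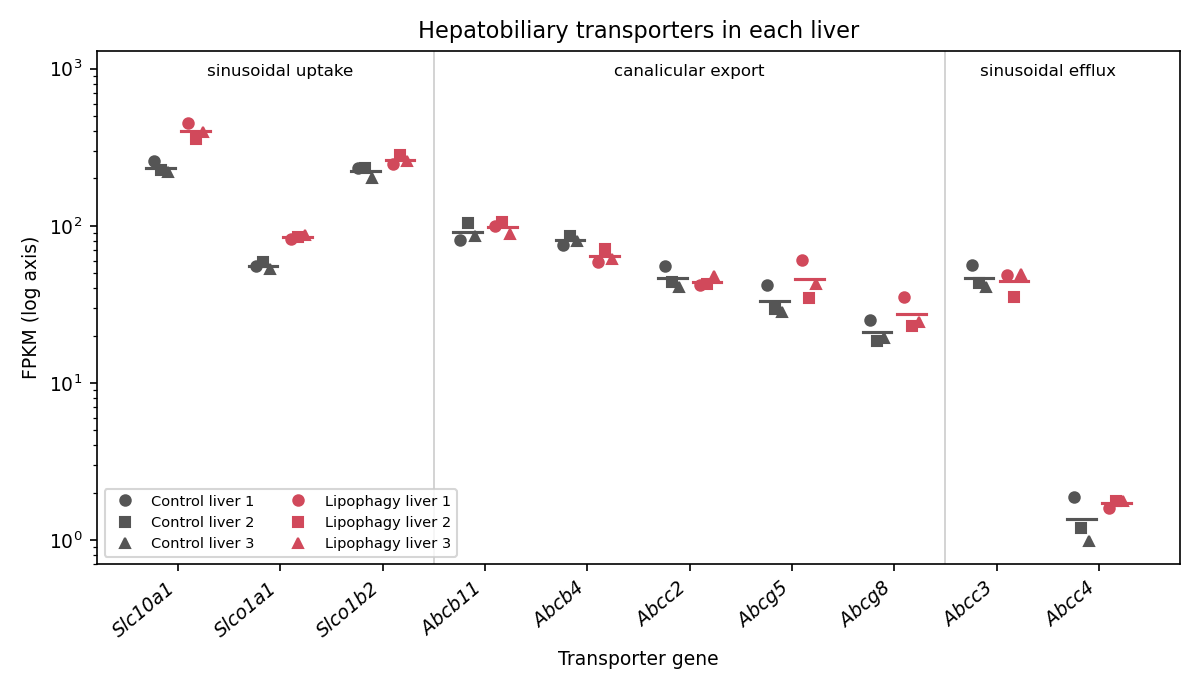
FPKM of each transporter on a log axis, with 1 symbol per liver, control livers in grey, lipophagy livers in red and a bar at each group mean (n = 3 per group). Slc10a1, Slco1a1 and, by a small gap, Slco1b2 are separated upward in lipophagy livers and Abcb4 downward, while Abcc4 lies near 1 to 2 FPKM in every liver.

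Slc10a1 encodes NTCP, the sodium-dependent carrier that takes up most conjugated bile acids from portal blood. It was at 257, 225 and 221 FPKM in control livers 1, 2 and 3 and at 451, 357 and 397 FPKM in lipophagy livers 1, 2 and 3. Every lipophagy liver lay above every control liver, and the lowest lipophagy value exceeded the highest control value by more than the spread among controls. The group means were 235 ± 19.8 FPKM (SD, n = 3) in control livers and 402 ± 47.0 FPKM (SD, n = 3) in lipophagy livers, a ratio of 1.71. The difference in log2(FPKM + 1) was 0.77 (standard error 0.11, 95% interval 0.51 to 1.03), with an adjusted p of 0.0802 (limma), the 17th smallest p of the 11493 genes. Only 0.531% of tested genes had a larger positive difference. The difference was 0.57 with quantile normalization, where the adjusted p was 0.116 (limma), and 0.48 relative to the hepatocyte markers. Over all alternatives the adjusted p ranged from 0.0184 to 0.336 (limma). Leaving out single livers gave 0.68 to 0.85. The gene lies at chr12:80953183-80968705 on the minus strand (GENCODE M21, GRCm38).

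Slco1a1 encodes OATP1A1, an organic anion transporting polypeptide of the sinusoidal membrane that is known as a male-predominant transcript in mouse liver. It was at 55.1, 58.7 and 52.8 FPKM in control livers and 82.3, 84.7 and 87.5 FPKM in lipophagy livers 1, 2 and 3. The SDs, 2.99 and 2.62 FPKM, were the smallest of the 3 uptake carriers, and all lipophagy livers were above all controls. The difference was 0.60 (standard error 0.077, 95% interval 0.42 to 0.78), with an adjusted p of 0.0710 (limma), the 7th smallest p of all tested genes. It was 0.47 with quantile normalization, 0.31 relative to the hepatocyte markers, and 0.57 to 0.64 with single livers left out. The gene lies at chr6:141907282-141946962 on the minus strand, and it has relatives of similar sequence nearby, Slco1a4 among them, and how the authors' counting divided reads shared with them is not given in the sources used here.

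Slco1b2 encodes OATP1B2, the mouse counterpart of the human OATP1B carriers, which takes up unconjugated bile acids, bilirubin and many drugs. It was at 232, 234 and 202 FPKM in control livers and 249, 283 and 257 FPKM in lipophagy livers 1, 2 and 3. Every lipophagy liver was the higher, but the gap between control liver 2 and lipophagy liver 1 was smaller than the SD of either group (17.6 and 17.4 FPKM). The difference was 0.24 (standard error 0.094, 95% interval 0.023 to 0.46, adjusted p = 0.230, limma). It ran from 0.17 to 0.28 with single livers left out, and the unadjusted p was above 0.05 without control liver 3, without lipophagy replicate 2 or 3, and with quantile normalization. It was 0.058 with quantile normalization and -0.049 relative to the hepatocyte markers, where the median of all tested genes was -0.27. Slco1b2 lies at chr6:141629518-141686646 on the plus strand, 220635 bases from Slco1a1 with the 3′ ends of both genes facing each other.

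The levels of Slc10a1 and Slco1b2 overlapped in control livers (221 to 257 and 202 to 234 FPKM), whereas in lipophagy livers Slc10a1 (357 to 451 FPKM) was above Slco1b2 (249 to 283 FPKM) in each liver. These 2 carriers were the most abundant members in both groups. Abcb11 and Abcb4 followed in control livers with overlapping ranges, then Slco1a1, whose range overlapped those of Abcc2 and Abcc3. Abcc2 and Abcc3 both had a mean of 46.7 FPKM in control livers, and Abcg5, Abcg8 and Abcc4 came last. In lipophagy livers Slco1a1 (82.3 to 87.5 FPKM) exceeded Abcb4 (58.7 to 71.0 FPKM), the reverse of the order in control livers (52.8 to 58.7 and 75.7 to 86.1 FPKM).

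Abcb11 encodes the bile salt export pump, which drives bile salt secretion across the canalicular membrane. It was at 81.3, 104 and 86.6 FPKM in control livers and 99.3, 105 and 88.5 FPKM in lipophagy livers 1, 2 and 3. The groups overlapped almost completely, with replicate 2 the highest liver of each. The difference was 0.11 (standard error 0.11, 95% interval -0.15 to 0.37, adjusted p = 0.610, limma), and it was -0.047 with quantile normalization and -0.18 relative to the hepatocyte markers. It was 0.036 without control liver 1 and 0.21 without control liver 2, and lay between these with any other liver left out. The estimate for Slc10a1, 0.77, lies outside that interval. Abcb11 lies at chr2:69238282-69342616 on the minus strand.

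Abcb4 encodes MDR2, the floppase that moves phosphatidylcholine into bile, and it was the only member below the controls in every lipophagy liver. It was at 75.7, 86.1 and 80.0 FPKM in control livers and 58.7, 71.0 and 61.5 FPKM in lipophagy livers 1, 2 and 3. Group means were 80.6 ± 5.18 FPKM (SD, n = 3) and 63.8 ± 6.46 FPKM (SD, n = 3), a ratio of 0.791. The difference was -0.34 (standard error 0.097, 95% interval -0.56 to -0.11), with an unadjusted p of 0.00825 and an adjusted p of 0.160 (limma). The difference was -0.48 with quantile normalization and -0.63 relative to the hepatocyte markers. With single livers left out it stayed between -0.42 and -0.28. Abcb4 lies at chr5:8893717-8959231 on the plus strand.

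Abcc2 encodes MRP2, the canalicular pump for bilirubin glucuronides and other conjugates. It was at 55.6, 43.6 and 40.9 FPKM in control livers and 41.9, 42.5 and 47.9 FPKM in lipophagy livers 1, 2 and 3. All 3 lipophagy livers lay within the range of the controls, from control liver 3 at the lower end to control liver 1 at the upper end. The difference was -0.072 (standard error 0.12, 95% interval -0.35 to 0.21, adjusted p = 0.767, limma), and it was 0.058 without control liver 1. It was -0.21 with quantile normalization and -0.36 relative to the hepatocyte markers. Abcc2 lies at chr19:43782192-43840740 on the plus strand.

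**Figure D2:**
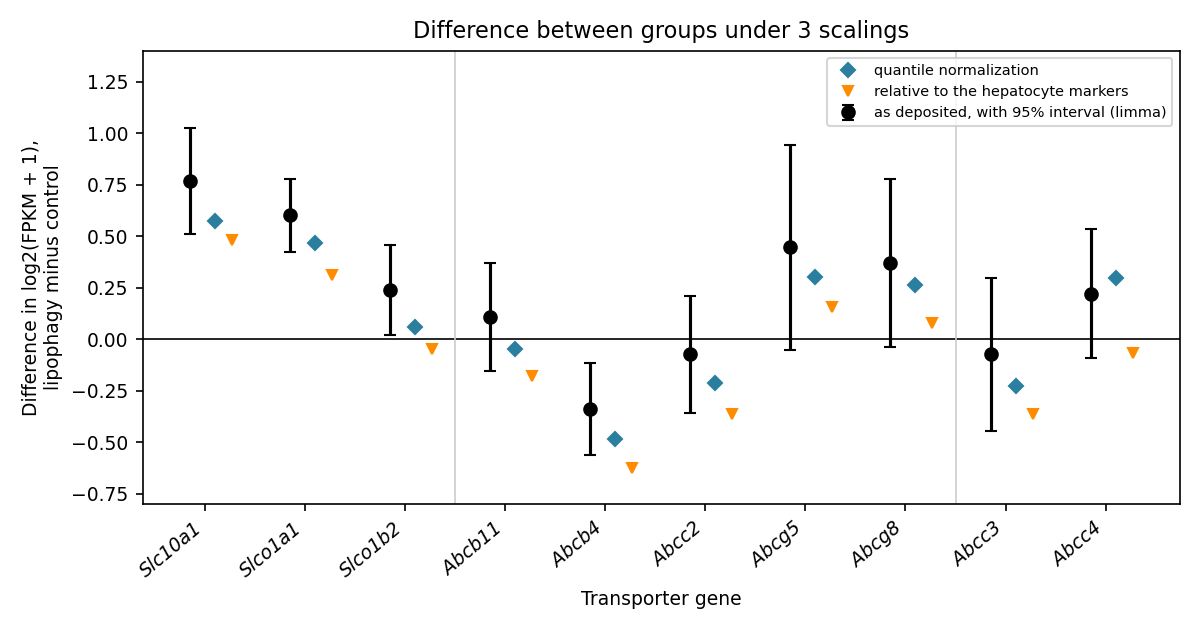
Difference in log2(FPKM + 1), lipophagy minus control, for each transporter: black points with 95% intervals (limma, 3 livers per group) for the deposited values, blue diamonds after quantile normalization and orange triangles relative to the hepatocyte markers. Slc10a1 and Slco1a1 stay above 0 and Abcb4 below 0 under all 3 scalings, whereas Abcb11 crosses 0 with quantile normalization. The marker scaling lowers every gene alike, so it could not bring Abcb4 above 0. Its values are to be read against the median of all tested genes on that scale, -0.27.

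Abcg5 and Abcg8 encode the sterolins, which work as an obligate heterodimer that exports cholesterol and plant sterols into bile and are known targets of LXR. Abcg5 was at 41.9, 29.6 and 28.1 FPKM in control livers and 60.7, 34.7 and 42.9 FPKM in lipophagy livers 1, 2 and 3. Abcg8 was at 25.3, 18.4 and 19.3 FPKM in control livers and 35.4, 23.1 and 24.4 FPKM in lipophagy livers. In both genes liver 1 was the highest of its group, and control liver 1 lay above lipophagy liver 2, so the groups overlapped. The difference was 0.45 for Abcg5 (standard error 0.21, 95% interval -0.050 to 0.94, adjusted p = 0.293, limma) and 0.37 for Abcg8 (standard error 0.18, 95% interval -0.036 to 0.78, adjusted p = 0.288, limma). Both values depended on single livers. They were 0.23 and 0.185 without lipophagy liver 1, 0.62 and 0.505 without control liver 1, and 0.63 and 0.48 without lipophagy liver 2, and in the last 2 fits both genes had an unadjusted p below 0.05. Relative to the hepatocyte markers they were 0.16 and 0.080. Abcg5 at chr17:84658234-84683011 (minus strand) and Abcg8 at chr17:84676302-84700333 (plus strand) overlap over 6710 bases in the annotation, and although the library kit keeps the strand, the sources used here do not say whether it was used in counting.

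Abcc3 and Abcc4 encode MRP3 and MRP4, the sinusoidal efflux pumps for anions and bile acid conjugates. Abcc3 was at 56.2, 43.0 and 40.8 FPKM in control livers and 48.6, 35.4 and 49.1 FPKM in lipophagy livers 1, 2 and 3. The groups overlapped, and the difference was -0.073 (standard error 0.16, 95% interval -0.44 to 0.30, adjusted p = 0.824, limma). Its sign turned when control liver 1 (0.066) or lipophagy liver 2 (0.079) was left out. It was -0.23 with quantile normalization and -0.36 relative to the hepatocyte markers. Abcc4 was at 1.89, 1.19 and 0.990 FPKM in control livers and 1.59, 1.78 and 1.78 FPKM in lipophagy livers. It was the lowest member by far, with an estimated 162 to 288 fragments per liver against at least 1602 for every other member. Control liver 1 exceeded all lipophagy livers. The Abcc4 difference of 0.22 (standard error 0.14, 95% interval -0.090 to 0.53, adjusted p = 0.386, limma) was 0.38 without control liver 1, 0.11 without control liver 3, 0.36 with a pseudocount of 0.1 and -0.068 relative to the hepatocyte markers. Abcc3 lies at chr11:94343295-94392997 and Abcc4 at chr14:118482692-118706219, both on the minus strand.

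Control liver 1 was the highest control liver for 6 members, namely Slc10a1, Abcc2, Abcc3, Abcc4, Abcg5 and Abcg8, and the lowest for Abcb11 and Abcb4. In the same liver the summed cholangiocyte markers, at 143 FPKM, were below those of control livers 2 and 3 (247 and 255 FPKM). Spp1 made up most of these sums (131, 227 and 236 FPKM in control livers 1, 2 and 3). Without Spp1 they were 12.3, 19.7 and 19.1 FPKM. The part of that liver's composition in these values was not tested. Without control liver 1, 7 members had an unadjusted p below 0.05, in place of 4, as Abcc4, Abcg5 and Abcg8 were added, while the share of all tested genes was 16.2% in place of 19.5%.

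Ratios of transporters within a liver do not depend on a single scaling factor per library, and 5 pairs of opposed or partnered transporters were compared. The ratio of Slc10a1 to Abcb11, bile acid uptake over bile salt export, was 3.17, 2.16 and 2.56 in control livers and 4.54, 3.40 and 4.48 in lipophagy livers 1, 2 and 3. Every lipophagy liver lay above the controls, with a difference of 0.66 in the mean log2 ratio (two-sided exact permutation test, p = 0.1, adjusted over 5 pairs 0.167). The ratio of Abcb4 to Abcb11, phospholipid over bile salt export, was 0.932, 0.827 and 0.924 in control livers and 0.591, 0.677 and 0.695 in lipophagy livers. Here the lipophagy livers lay below the controls, with a difference of -0.45 (exact permutation test, p = 0.1, adjusted 0.167). The ratio of Slco1a1 to Slco1b2 was 0.238, 0.251 and 0.261 in control livers and 0.330, 0.300 and 0.340 in lipophagy livers, again without overlap (0.37, exact permutation test, p = 0.1, adjusted 0.167). A p of 0.1 is the smallest that 3 livers against 3 allow.

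Abcg5 was above Abcg8, its partner in the heterodimer, in all 6 livers. The log2 ratio was 0.73, 0.69 and 0.55 in control livers and 0.78, 0.58 and 0.82 in lipophagy livers. The groups overlapped (difference of 0.073 in log2 ratio, exact permutation test, p = 0.5, adjusted 0.625), and the difference ran from 0.018 without control liver 3 to 0.14 without lipophagy liver 2. Abcc3 over Abcc2, the sinusoidal over the canalicular MRP, lay between 0.987 and 1.01 in the 3 control livers and at 1.16, 0.834 and 1.03 in the lipophagy livers. The means were almost equal (difference -0.0010, exact permutation test, p = 1.0), and the lipophagy livers scattered more widely, with an SD of 0.241 against 0.0169 on the log2 scale.

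**Figure D3:**
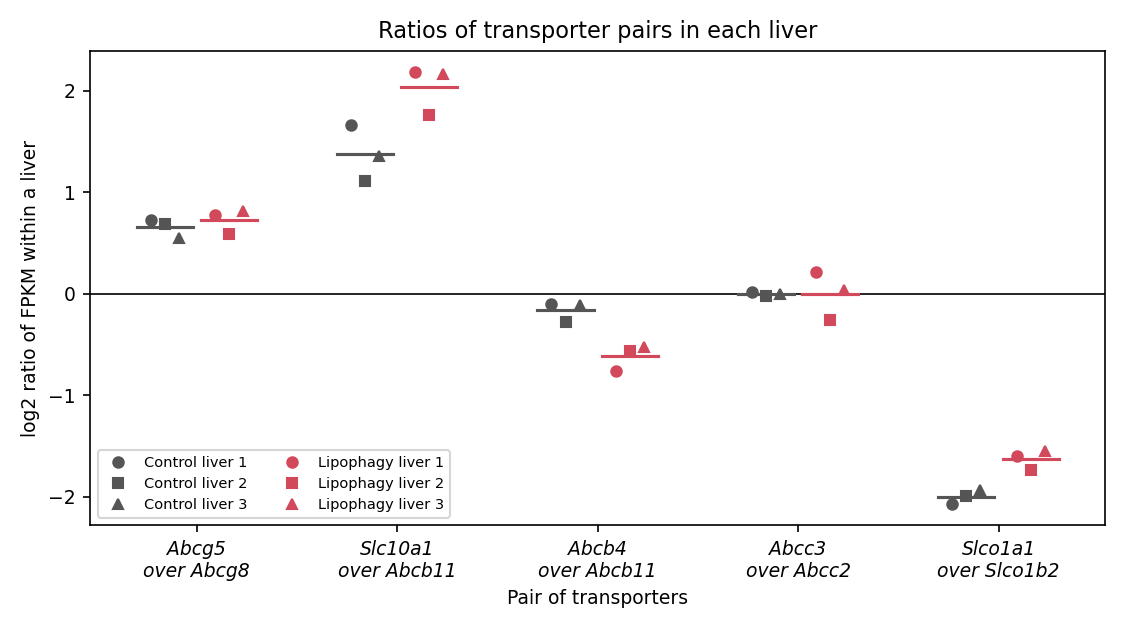
log2 ratio of FPKM between 2 transporters in the same liver for 5 pairs, with control livers in grey, lipophagy livers in red and bars at the group means (n = 3 per group). Groups are separated for Slc10a1 over Abcb11, Abcb4 over Abcb11 and Slco1a1 over Slco1b2, and overlap for Abcg5 over Abcg8 and Abcc3 over Abcc2.

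Of 26 other transporters of hepatocytes and bile ducts, 24 were tested, none passed the adjusted threshold, 4 had an unadjusted p below 0.05 and were higher, and 2 were lower, against 11.5% and 7.97% of all tested genes. The median difference was 0.074. Slc51a, which encodes a subunit of the basolateral bile acid exporter OST, was listed at 0 in every liver, and its partner Slc51b had the most negative difference of the list (-0.26, standard error 0.24), from 2.96 ± 1.42 to 2.17 ± 0.313 FPKM (SD, n = 3) with overlapping livers. Slc2a2, the hepatocyte glucose carrier GLUT2, had the largest positive difference (0.43, standard error 0.16, adjusted p = 0.211, limma). Slco1a4, the relative of Slco1a1, was at 10.7 ± 4.10 and 14.8 ± 5.48 FPKM (SD, n = 3), with a difference of 0.41 and a standard error of 0.31 that leaves it within the spread. Abcg2, the canalicular breast cancer resistance protein, differed by 0.20 (standard error 0.094, adjusted p = 0.276, limma). Atp8b1, the flippase that protects the canalicular membrane, differed by 0.037 (standard error 0.11). The genes with an unadjusted p below 0.05, given after their values were seen, were Slc22a7, Slc27a5, Slc2a2 and Slc29a1 (higher) and Abcb1a and Abcg1 (lower).

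Of these, Slc27a5 is the bile acyl-CoA synthetase, which activates bile acids returned by uptake to the thioesters from which conjugates are made. It was at 313 ± 19.4 FPKM (SD, n = 3) in control livers and 400.3 ± 38.8 FPKM (SD, n = 3) in lipophagy livers without overlap (0.35, standard error 0.099, adjusted p = 0.160, limma). Slc22a7, the anion carrier OAT2, was at 11.1 ± 1.85 and 14.6 ± 1.17 FPKM (SD, n = 3). Slc29a1, an equilibrative nucleoside carrier, was at 58.1 ± 6.86 and 77.4 ± 6.33 FPKM (SD, n = 3). Both were separated between the groups and had adjusted p values of 0.194 and 0.148 (limma).

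All 22 regulators of these transporters were tested, and none passed the adjusted threshold. At an unadjusted p below 0.05, 2 were higher and 3 lower, all without overlap, against 11.5% and 7.97% of all tested genes. Nr1h4, which encodes FXR, was at 57.5 ± 3.45 FPKM (SD, n = 3) in control livers and 60.5 ± 2.27 FPKM (SD, n = 3) in lipophagy livers, with a difference of 0.072 (standard error 0.080, adjusted p = 0.633, limma). Nr0b2, the FXR-induced repressor SHP, which is known to lower Slc10a1 transcription, had the largest positive difference of the list (0.58, standard error 0.33, adjusted p = 0.361, limma), with control livers spread over 34.7 ± 17.7 FPKM (SD, n = 3). It was at 17.3, 52.7 and 34.0 FPKM in control livers and 45.9, 54.4 and 43.2 FPKM in lipophagy livers 1, 2 and 3. The groups overlapped, control liver 1 was the lowest, and how far the difference rests on that liver was not tested. Nr1i3, which encodes CAR, was at 41.9 ± 1.52 and 49.3 ± 0.249 FPKM (SD, n = 3), with no overlap (0.23, standard error 0.071, adjusted p = 0.176, limma). Nr1i2 (PXR) differed by 0.28 (standard error 0.17), Nr1h3 (LXR alpha) by 0.20 (standard error 0.098) and Hnf4a, a factor of hepatocyte identity, by 0.097 (standard error 0.10), each with overlapping livers.

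The most negative difference among regulators was that of Onecut1 (-0.86, standard error 0.35, adjusted p = 0.240, limma), a factor of hepatocyte and bile duct development, at 4.24, 0.983 and 0.934 FPKM in control livers and 0.531, 0.341 and 0.653 FPKM in lipophagy livers. Control liver 1 stood apart from the other controls. Besides Nr1i3 and Onecut1 these were 3 genes named after their values were seen. Ghr, the growth hormone receptor, was at 150.4 ± 12.6 and 203 ± 10.3 FPKM (SD, n = 3), a difference of 0.43 (standard error 0.091, adjusted p = 0.131, limma). Foxa2 was lower, at 14.7 ± 2.89 and 8.06 ± 0.988 FPKM (SD, n = 3), a difference of -0.78 (standard error 0.145, adjusted p = 0.116, limma). Nfe2l2, which encodes the antioxidant regulator NRF2, was lower as well (-0.26, standard error 0.078, adjusted p = 0.170, limma). The list as a whole had 14 genes with a positive and 8 with a negative difference and a median of 0.016, close to that of all tested genes.

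**Figure D4:**
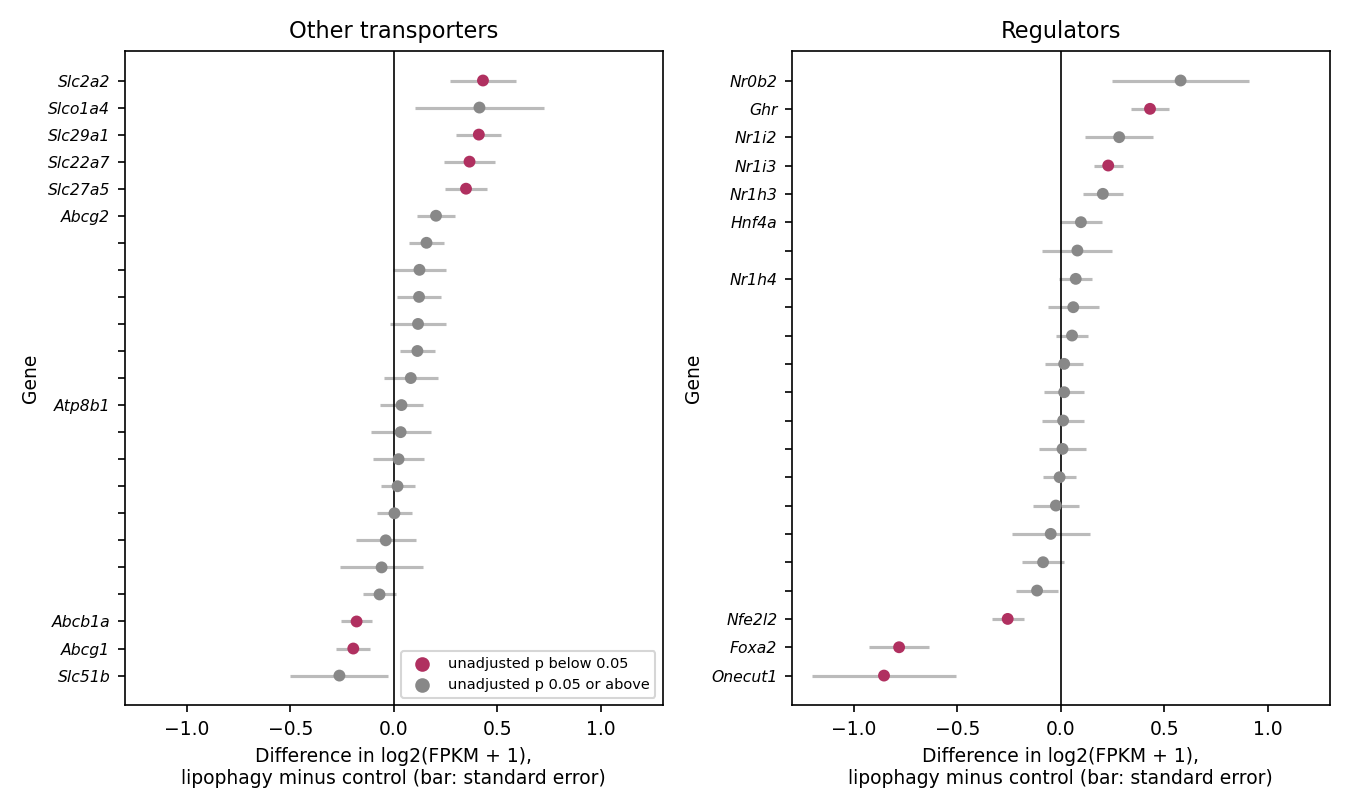
Difference in log2(FPKM + 1), lipophagy minus control, with standard errors (limma, 3 livers per group) for 23 of the other transporters tested and 22 regulators, sorted by size and labelled where the text names them, with genes at an unadjusted p below 0.05 in dark red. Slc2a2 and Nr0b2 head the lists, Slc51b and Onecut1 close them, and none passed an adjusted p of 0.05.

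Of 24 genes for the scaffold, trafficking and junctions of the canalicular membrane, none passed the adjusted threshold, 10 were higher and 14 lower, and the median was -0.030. At an unadjusted p below 0.05 (limma), 3 were higher and 3 lower, against 11.5% and 7.97% of all tested genes. Given after their values were seen, these were Rab4a, Hax1 and Dpp4 (higher) and Ezr, Msn and F11r (lower). Rab4a, a GTPase of endosomal recycling, had the largest positive difference (0.35, standard error 0.082, adjusted p = 0.135, limma), and Ezr, which encodes ezrin, an actin linker that bile duct cells express, had the most negative (-0.44, standard error 0.10, adjusted p = 0.134, limma). In both genes the groups did not overlap. The scaffolds that bind the ends of several transporters, Pdzk1 (37.1 and 39.7 FPKM) and Slc9a3r1 (115 and 132 FPKM), and the hepatocyte linker Rdx (29.8 and 30.5 FPKM), named after their values were seen, had adjusted p values of 0.555, 0.271 and 0.824 (limma). Of these, Slc9a3r1 was higher in every lipophagy liver (127 to 135 FPKM) than in every control liver (106 to 124 FPKM). Msn was lower without overlap (-0.35, standard error 0.099, adjusted p = 0.159, limma).

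The tissue label fitted the markers, with Alb, the plasma albumin, at 37748 ± 1991 FPKM (SD, n = 3) in control livers and 52739 ± 10042 FPKM (SD, n = 3) in lipophagy livers. Within the hepatocyte list Tat, a tyrosine-degrading enzyme, had the largest positive difference (0.99, standard error 0.36) and Apoa1 the most negative (-0.062, standard error 0.15). Markers of zonation were also measured beside the transporters. Of 10 periportal markers, none of them at 0, 8 were higher and 5 had an unadjusted p below 0.05 and were higher (11.5% of all tested genes), with summed levels of 2567 to 2699 FPKM in control and 2815 to 4207 FPKM in lipophagy livers (1990 to 2138 and 2079 to 2960 FPKM, overlapping, without Pck1), from Aldh1b1 (-0.0080) to Etnppl (0.86). Of 10 pericentral markers, none of them at 0, 6 were higher, 1 had an unadjusted p below 0.05, and the summed levels overlapped (3912 to 4788 and 4684 to 5397 FPKM), from Axin2 (-0.22) to Cyp2e1 (0.28). Whether zonation has a part in the transporter values was not tested.

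Bile duct cells also carry some of these transporters. Of 12 cholangiocyte markers, none at 0 in all livers, 8 were tested and all 8 had a negative difference, from Sox9 (-0.060) to Spp1 (-0.71), but 0 had an adjusted or an unadjusted p below 0.05 (limma) and the summed levels overlapped (143 to 255 and 96.9 to 204 FPKM). Spp1 made up most of that sum, and without it the sums overlapped as well (12.3 to 19.7 and 9.04 to 16.9 FPKM). Krt19 was at 3.37 ± 1.27 and 2.05 ± 1.13 FPKM (SD, n = 3) and Epcam at 3.81 ± 1.46 and 2.33 ± 1.27 FPKM (SD, n = 3). Of 11 stellate cell markers 10 were lower and 8 had an unadjusted p below 0.05 and were lower (7.97% of all tested genes), with summed levels of 61.8 to 68.5 and 42.1 to 48.5 FPKM, from Lrat (0.25) to Col1a1 (-0.75). Of 13 macrophage markers 12 were tested, with 4 lower and 1 higher at an unadjusted p below 0.05 (7.97% and 11.5% of all tested genes) and summed levels of 549 to 729 and 543 to 672 FPKM (227 to 243 and 213 to 224 FPKM, without overlap, when Lyz2 is left out), from Cd68 (-0.38) to Vsig4 (0.40). The 9 sinusoidal endothelial markers ran from Pecam1 (-0.11) to Clec4g (0.44), with summed levels of 36.8 to 46.2 and 40.6 to 63.2 FPKM. Of 6 red cell genes 5 were in the table and 4 tested, from Alas2 (0.26) to Hba-a2 (2.36). All 4 were higher, and 2 of them, Alas2 and Hba-a2, had an unadjusted p below 0.05 (11.5% of all tested genes). Hba-a2 was at 10.1 and 11.6 FPKM in lipophagy livers 1 and 2 and at 0.0203 to 0.0209 FPKM in the other livers, and the summed level was 253 FPKM in lipophagy liver 2 and 92.5 to 127 FPKM in the other livers. Without Hba-a1 the red cell sums did not overlap (73.9 to 77.9 and 83.9 to 111 FPKM). None of the stellate, macrophage, endothelial or red cell markers was at 0 in all livers.

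**Figure D5:**
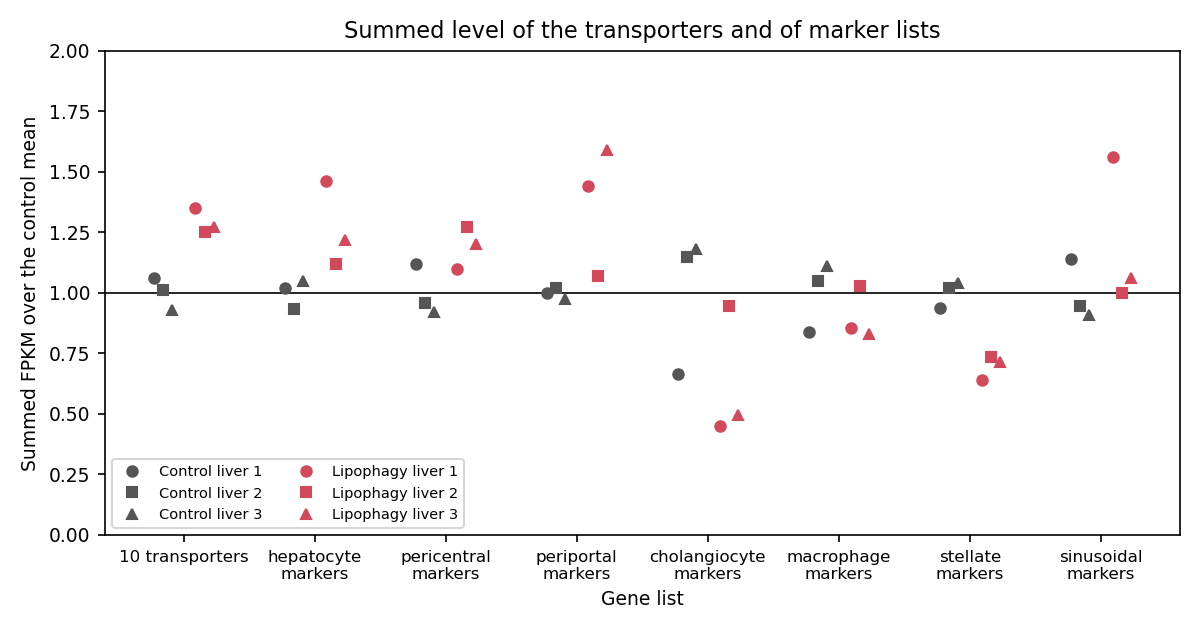
Summed FPKM of the 10 transporters and of 7 marker lists in each liver, divided by the mean of the control livers (line at 1), with control livers in grey and lipophagy livers in red. The summed transporters (1.25 to 1.35 in lipophagy livers), hepatocyte and periportal markers are separated upward and stellate markers downward, and the other lists overlap. Slc10a1 makes up 69.1% of the difference in the summed transporters, which stay separated without it (552 to 625 and 661 to 681 FPKM). Without Alb and without Pck1 the hepatocyte and periportal sums overlap.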

How the data were processed

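Liver poly(A) RNA was prepared with a stranded kit and sequenced as paired-end reads. The authors deposited FPKM values, scaled to transcript length and mapped fragments, for 24346 symbols in each of the 6 livers, and 0 other columns were present. Among the names 27 had been turned into dates and 4 rows shared a name. The submitters' processing notes name TopHat2 2.0.13, Bowtie2 2.2.3, SAMtools 0.1.19, Cufflinks 2.2.1 and mm10, and the gene annotation is not given in the sources used here. Groups and replicate numbers came from the sample titles. The labels do not say that each sample is a separate animal, so p-values measure the spread between these samples.

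The 11493 symbols that averaged 0.5 FPKM or more were fitted as log2(FPKM + 1) with limma 3.58.1 in R 4.3.3 (intensity trend, no covariates, two-sided, Benjamini-Hochberg over all tested genes, threshold 0.05). Differences on this scale understate the change of low genes. Ratios were compared by two-sided exact permutation tests in Python 3.11.15. Alternatives were pseudocounts of 0.1 and 0.5, no filter or a mean of 1 FPKM, quantile and median scaling, no trend, the replicate number as a block, and each liver left out. Scaling to the hepatocyte markers was added after seeing the data.

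The members, gene lists and tests were chosen with earlier results of these data known. Named genes were all members, the largest positive and negative difference in each list, any list gene past the adjusted threshold, and 15 genes fixed by name, of which 1 is not reported here. Others are marked as named after their values were seen.

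Depth was estimated from the steps of single fragments in low FPKM values and, for 364 genes, transcript lengths. Between 54.2% and 70.5% of low values lay on such steps, so reads could not be recovered and the depth is approximate. It came to 23.8 to 34.0 M fragments in control livers and 22.9 to 24.8 M in lipophagy livers. Spearman correlations between livers were 0.980 to 0.991, and 0 pairs of livers were identical. Positions are from GENCODE M21 and sequences from RefSeq (GRCm38.p6). Protein sequences were not used here.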

Additional observations from a re-analysis of the deposited data

How the results depend on the processing

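The number of genes with an adjusted p below 0.05 (limma) was 3, and it was 1 with no filter, 43 with the replicate number as a block, 3745 relative to the hepatocyte markers and between 1 and 11 with single livers left out (7 on omitting control replicate 2, 1 on omitting control replicate 3, and 5 and 11 on omitting lipophagy replicates 2 and 3). The number of transporters past this threshold was 0, and it was 1 with the replicate block, where Slc10a1 had an adjusted p of 0.0321, 3 relative to the hepatocyte markers (Slc10a1, Slco1a1 and Abcb4), and 0 in each fit without a liver. Relative to the hepatocyte markers the median of all genes shifted by -0.29, to -0.27, with 79 genes higher and 5653 lower at an unadjusted p below 0.05, so those calls include that shift. For the deposited scaling that split was 1327 higher and 916 lower, and with quantile normalization 745 and 899. The number of transporters at an unadjusted p below 0.05 was 4, and 3 to 7 with single livers left out, where 12.7% to 22.2% of all tested genes were below it, against 19.5% with every liver.

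Relative to the hepatocyte markers, where every gene is lowered alike, Abcb11 (-0.18), Slco1b2 (-0.049) and Abcc4 (-0.068) were below 0 and above the median of all genes. Signs turned for Abcb11 with quantile normalization (-0.047), and without single livers for Abcc2 (-0.159 to 0.058, the latter on omitting control replicate 1) and Abcc3 (-0.160 to 0.079, with 0.066 on omitting control replicate 1 and 0.079 on omitting lipophagy replicate 2). The log2 ratio of Abcc3 to Abcc2 was -0.0010 and ranged from -0.11 to 0.13 without single livers (0.0080 on omitting control replicate 1, 0.13 on omitting lipophagy replicate 2). The cause was not tested. The sign of Slc10a1, Slco1a1, Abcb4, Abcg5 and Abcg8 held in all 15 alternatives. The filters, the fit without the trend and the replicate block leave the estimate unchanged, so they could not turn a sign. The marker scaling lowers every gene, so it could not turn the sign of Abcb4. Over the 15 alternatives, the adjusted p ranged from 0.0184 to 0.336 for Slc10a1, 0.0482 to 0.321 for Slco1a1 and 0.0195 to 0.355 for Abcb4. Livers sharing a replicate number deviated with correlations of 0.25, 0.23 and -0.057, so the numbers were not taken as pairs, and not every liver correlated best with its own number. Beyond the calls above, the block added Abcg5 and Abcg8 at an unadjusted p below 0.05, which 17.8% of all tested genes had in that fit.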
